A study of Mus musculus with 8 samples.

Results

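The 10 genes described here, Sqstm1, Pink1, Bnip3, Bnip3l, Fundc1, Map1lc3b, Gabarapl1, Trim63, Fbxo32 and Foxo3, belong to mitophagy, autophagy and the muscle atrophy programme. They were taken by name from the 50599 records that each library lists, and each name matched 1 record. RNA was sequenced from the whole hearts of C57BL/6N mice, 12-week-old males, in 8 libraries, each from 1 mouse, of which 4 were labelled wildtype and 4 Lrpprc knockout. The wildtype animals carried the floxed alleles alone (Lrpprc loxP/loxP), and the knockout animals carried the same alleles and a cre transgene that removes Lrpprc in heart and skeletal muscle. Which cells of the heart express the cre is not given in the sources used here. Lrpprc encodes an RNA-binding protein of mitochondria. All values are from total RNA depleted of cytoplasmic rRNA and primed with random hexamers, and give the RNA of these genes, not the protein or the flux through autophagy.

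Autophagy encloses cell material in a membrane that grows around it and then fuses with a lysosome, and mitophagy is its selective form for mitochondria. Small proteins of the ATG8 family, to which Map1lc3b and Gabarapl1 belong, are joined to the growing membrane, and receptors such as the Sqstm1 product p62 bind them together with the cargo. Damaged mitochondria are marked by the kinase PINK1, or carry receptors in their outer membrane, such as BNIP3, BNIP3L (NIX) and FUNDC1, that bind ATG8 proteins directly. In the atrophy programme of muscle, the transcription factor FOXO3 drives the ubiquitin ligases MuRF1 (Trim63) and atrogin-1 (Fbxo32), which mark muscle proteins for the proteasome, as well as several autophagy genes.

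The genes did not move as 1 group in the Lrpprc knockout hearts. Sqstm1 and Gabarapl1 rose, by 4.43 and 2.03 times. Pink1 fell to 0.469 of its wildtype count and Fundc1 to 0.724. The other 6, namely Bnip3, Bnip3l, Map1lc3b, Trim63, Fbxo32 and Foxo3, did not pass the threshold, an adjusted p under 0.05 by DESeq2 over all records. Of all 19959 records tested, 33.7% passed, 18.2% as higher and 15.5% as lower in the knockout, so that 4 of 10 genes is close to the share among all genes. The median log2 fold change was -0.05 over the 10 genes and 0.0050 over all records tested.

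**Figure D1:**
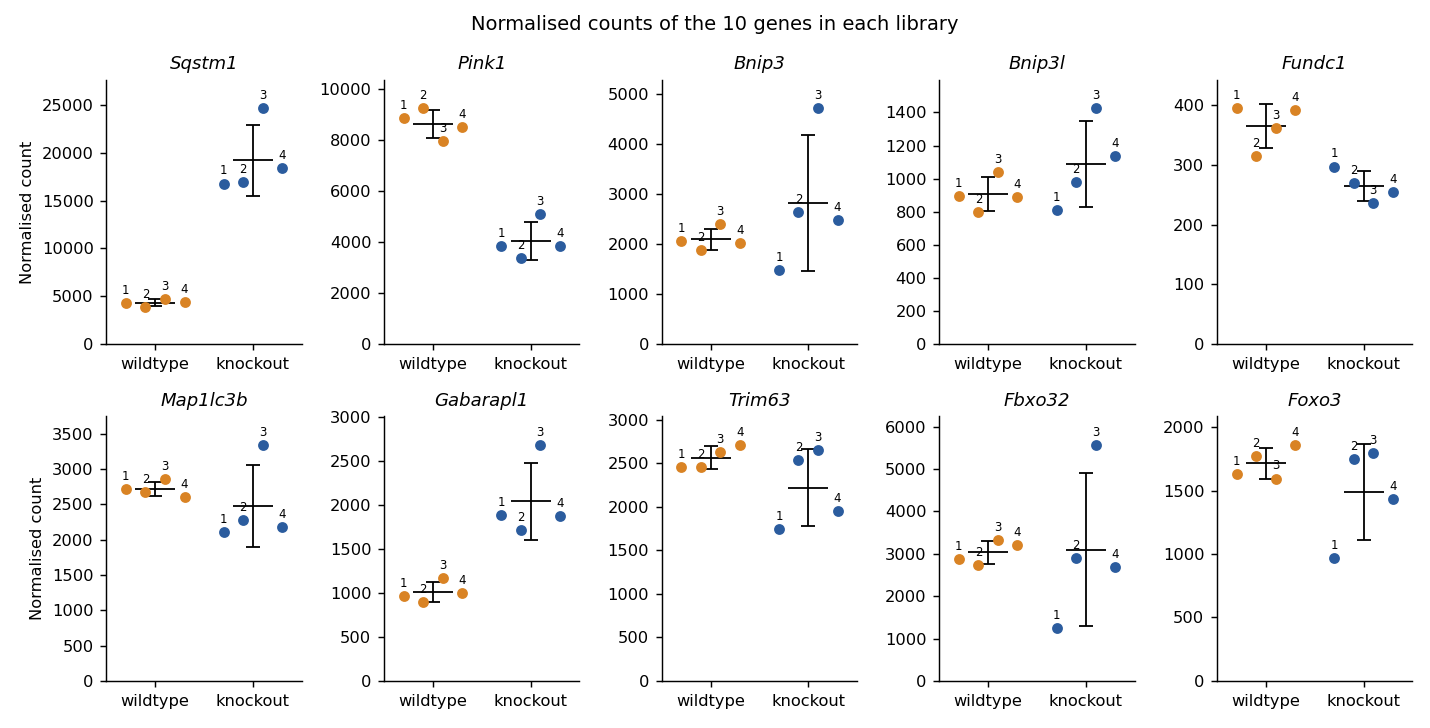
Normalised counts (linear axes from 0) of the 10 genes in the 4 wildtype (orange) and 4 knockout (blue) libraries, with the replicate number above each point and the mean and SD as bars. The groups are apart for Sqstm1, Pink1, Fundc1 and Gabarapl1 and overlap for the other 6, and knockout replicate 3 is the highest knockout library in 9 of the 10 panels.

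The libraries held between 35218541 and 47743376 counts. Mitochondrial rRNA took 44.0% to 46.9% of the counts in the wildtype and 65.6% to 67.8% in the knockout. Counts were therefore compared after median-of-ratios scaling, and calls that another scaling ended are named beside the genes. Scaling to the total count (library-size scaling) moved the median log2 fold change of all genes by -0.30, and scaling to the total outside mitochondrial rRNA (rRNA-free scaling) moved it by 0.42. The former called 1924 records higher and 5912 lower, and the latter 7917 higher and 1103 lower. Lrpprc itself fell by 2.67 on the log2 scale, and each library labelled knockout lay below each labelled wildtype. Knockout replicate 3 stood apart from the other knockout libraries on the second principal component (45.7 against -22.3 to -14.8), which held 12.9% of the variance. It lay below the other 3 for 6 of 6 endothelial, 7 of 8 macrophage and 5 of 6 smooth muscle markers. So it did for 4 of 6 fibroblast and 4 of 5 atrial markers. It lay above them for 5 of 5 erythroid and 4 of 8 cardiomyocyte markers. Over the 12170 genes that averaged 50 normalised counts or more, it was the lowest knockout library for 28.5% and the highest for 39.1%. The 4 of 8 cardiomyocyte markers are close to that share. Of the cardiomyocyte markers 6 of 8 were lower in the knockout, with a summed normalised count of 1011580 to 1124330 in the wildtype and 481482 to 629521 in the knockout, and of the macrophage markers 6 of 8 were higher, with sums of 4206 to 5780.2 and 4230.3 to 10830.1. Fibroblast markers were higher for 2 of 6 and smooth muscle markers lower for 2 of 6. Atrial markers were higher for 1 and lower for 2 of 5, and skeletal muscle markers higher for 2 of the 5 tested. Of the endothelial, adipocyte and erythroid markers 0 passed the test. Of all records 18.2% passed as higher and 15.5% as lower, 33.7% in either direction. The 2 of 6 fibroblast, 2 of 6 smooth muscle and 2 of 5 skeletal muscle markers are close to the share in either direction. In these whole hearts fewer cells of a type and less RNA per cell cannot be told apart, and the part of cell make-up in the values that follow was not tested.

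The sequence just before the transcription start is shown for the 4 genes that passed the test and for Bnip3 and Trim63, the only 1 of the 8 windows with CACGTG and the only 1 with GTAAACA. The windows come from RefSeq (GRCm38.p6), which held 8 of the 10 genes and not Bnip3l or Fbxo32, and end at the base before the RefSeq start. The RefSeq start can differ from the GENCODE one, and the Fundc1 window lies within the GENCODE gene. Capitals mark matches on either strand.
Sqstm1, chr11:50210821-50210920, minus strand: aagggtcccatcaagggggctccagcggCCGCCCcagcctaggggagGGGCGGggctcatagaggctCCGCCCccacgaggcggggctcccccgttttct
Gabarapl1, chr6:129533092-129533191, plus strand: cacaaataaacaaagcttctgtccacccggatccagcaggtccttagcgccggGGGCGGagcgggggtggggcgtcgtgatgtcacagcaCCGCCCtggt
Pink1, chr4:138326297-138326396, minus strand: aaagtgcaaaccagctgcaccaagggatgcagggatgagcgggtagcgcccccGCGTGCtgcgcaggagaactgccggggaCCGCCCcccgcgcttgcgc
Fundc1, chrX:17572008-17572107, minus strand: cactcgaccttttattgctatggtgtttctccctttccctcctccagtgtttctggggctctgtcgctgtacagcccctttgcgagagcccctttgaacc
Bnip3, chr7:138909507-138909756, minus strand: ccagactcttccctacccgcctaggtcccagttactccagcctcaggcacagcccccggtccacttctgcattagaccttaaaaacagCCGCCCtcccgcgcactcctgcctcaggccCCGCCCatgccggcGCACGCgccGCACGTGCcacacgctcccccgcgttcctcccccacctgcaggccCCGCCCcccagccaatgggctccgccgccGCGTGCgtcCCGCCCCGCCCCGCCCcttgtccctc
Trim63, chr4:134314870-134315119, plus strand: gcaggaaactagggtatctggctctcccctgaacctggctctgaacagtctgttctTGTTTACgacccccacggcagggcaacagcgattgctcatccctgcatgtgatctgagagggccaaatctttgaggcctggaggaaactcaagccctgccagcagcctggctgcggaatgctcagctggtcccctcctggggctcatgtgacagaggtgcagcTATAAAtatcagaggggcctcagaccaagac

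In the 250 bases before the start, the letters searched for were TCACGTG (the core bound by TFEB, found in 3.13% of all 32851 windows), CACGTG (1 form of the E-box, which the former contains, 6.02%), GTAAACA (bound by FoxO factors, 3.17%), TGACNNNGC (the antioxidant response element bound by NRF2, 10.2%), TGATGNAA (the element bound by ATF4, 3.45%), and the hypoxia elements ACGTGC (4.92%) and GCGTGC (9.58%). TATAAA (12.4%) and GGGCGG (the GC box, 32.7%) were added after the data were seen. The Bnip3 window held CACGTG from 108 to 103 bases before the start, overlapped on both strands by ACGTGC, and GCGTGC at 2 further places. The Trim63 window held GTAAACA on the other strand from 194 to 188 bases before the start, and TATAAA from 31 to 26. GCGTGC was also present before Pink1, Map1lc3b and Foxo3, and the GC box before 6 of the 8 genes. The Sqstm1 and Gabarapl1 windows held GC boxes and no other match, and the Fundc1 window held none of the 9. These are matches of letters and nothing was read from them about binding.

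Sqstm1 (ENSMUSG00000015837.15, chromosome 11 from 50199366 to 50210827, minus strand, GRCm38, protein-coding) encodes p62, the receptor that carries ubiquitinated cargo to ATG8 proteins and is itself degraded by autophagy. The wildtype libraries held 4300.1, 3881, 4758 and 4397 normalised counts of it (replicates 1 to 4, an order kept throughout), and the knockout libraries 16777, 16980.0, 24652 and 18344. Every knockout library lay above every wildtype library, with replicate 3 well above the other 3 knockouts. Means were 4334 ± 361 for the wildtype and 19188 ± 3708 for the knockout (SD, n = 4 each). This was a rise of 4.43 times (95% interval 3.64 to 5.38), or 2.15 ± 0.144 (SE) as a log2 fold change (adjusted p = 8.77e-48 by DESeq2). Of all records tested, 3.15% had a higher log2 fold change. Without knockout replicate 3 the log2 fold change was 2.00.

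Gabarapl1 (ENSMUSG00000030161.8, chromosome 6 from 129533160 to 129542346, plus strand, protein-coding) encodes an ATG8 protein of the GABARAP branch. Its normalised counts were 964, 900.1, 1166 and 999 in the wildtype and 1887, 1719, 2685 and 1876 in the knockout. The highest wildtype library stayed below the lowest knockout library, and replicate 3 was the highest library in each group. The mean rose from 1007 ± 114 to 2042 ± 436 (SD, n = 4 each), for which the log2 fold change was 1.02 ± 0.161 (SE, adjusted p = 4.05e-09 by DESeq2). The fold of 2.03 had a 95% interval of 1.63 to 2.52.

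Pink1 (ENSMUSG00000028756.12, chromosome 4 from 138313409 to 138326307, minus strand, protein-coding) encodes the kinase that builds up on depolarised mitochondria and phosphorylates ubiquitin there. It had the highest count of the 10 genes in the wildtype, with normalised counts of 8839, 9246, 7937 and 8501. In the knockout they were 3859.8, 3391, 5098 and 3831, so that the highest knockout library, 5098, was well under the lowest wildtype one. The mean fell from 8631 ± 554 to 4045 ± 734 (SD, n = 4 each), for which the log2 fold change was -1.09 ± 0.136 (SE, adjusted p = 3.19e-14 by DESeq2). The knockout level was 0.469 of the wildtype level (95% interval 0.389 to 0.564).

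Fundc1 (ENSMUSG00000025040.13, chromosome X from 17556564 to 17572325, minus strand, protein-coding) encodes an outer membrane receptor for mitophagy in hypoxia. It had the lowest counts of the 10 genes, 395, 315, 361 and 391 in the wildtype and 297, 269.8, 236 and 255 in the knockout. The groups did not overlap, but the gap between them, from 297 to 315, was small beside their spread. Means were 365 ± 36.9 for the wildtype and 264 ± 25.8 for the knockout (SD, n = 4 each), and the log2 fold change was -0.47 ± 0.136 (SE, adjusted p = 0.00282 by DESeq2). With rRNA-free scaling the call was lost, at -0.04 (adjusted p = 0.862 by DESeq2). It was the only 1 of the 10 genes for which knockout replicate 3 was the lowest knockout library. The groups of libraries did not overlap for 33.0% of all records tested, and for these 4 of the 10 genes.

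The BH3 receptors Bnip3 and Bnip3l, which hypoxia is known to induce, differed more among the knockout hearts than between the groups. Bnip3 (ENSMUSG00000078566.8, chromosome 7 from 138890836 to 138909519, minus strand, protein-coding) had normalised counts of 2069, 1885, 2397 and 2022 in the wildtype and 1483, 2635, 4718 and 2478 in the knockout. Knockout replicate 1 lay below all wildtype libraries and the other 3 knockouts above them. The log2 fold change was 0.43 with a 95% interval of -0.10 to 0.97 (adjusted p = 0.227 by DESeq2). It came to 0.65 once knockout replicate 1 was left out (adjusted p = 0.0109 by DESeq2) and to 0.07 once knockout replicate 3 was (adjusted p = 0.812 by DESeq2). With rRNA-free scaling it was 0.84 (adjusted p = 0.00399 by DESeq2) and with library-size scaling 0.12 (adjusted p = 0.756 by DESeq2). Bnip3l (ENSMUSG00000022051.15, chromosome 14 from 66985239 to 67008877, minus strand, protein-coding) had counts of 898, 796, 1043 and 892 in the wildtype and 812, 981, 1426 and 1138 in the knockout. Its groups overlapped, and the order of the 4 knockouts was not the same as for Bnip3, since replicate 4 stood above replicate 2. The log2 fold change was 0.26 with a 95% interval of -0.08 to 0.61 (adjusted p = 0.261 by DESeq2). It was 0.68 (adjusted p = 0.000149 by DESeq2) with rRNA-free scaling and -0.04 (adjusted p = 0.887 by DESeq2) with library-size scaling. Left-out knockout libraries moved it too, to 0.38 without replicate 1 (adjusted p = 0.0501 by DESeq2) and 0.11 without replicate 3.

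Map1lc3b (ENSMUSG00000031812.16, chromosome 8 from 121590361 to 121598760, plus strand, protein-coding) encodes LC3B, the ATG8 protein most used to follow autophagosomes. Its normalised counts were 2722, 2677, 2855 and 2611 in the wildtype and 2105, 2280.1, 3345 and 2185 in the knockout. Knockout replicates 1, 2 and 4 lay below all wildtype libraries, and knockout replicate 3 above all of them. Means were 2716 ± 103 for the wildtype and 2479 ± 582 for the knockout (SD, n = 4 each), and the log2 fold change was -0.13 with a 95% interval of -0.44 to 0.17 (adjusted p = 0.56 by DESeq2). Knockout replicate 3 decided this call, since without it the log2 fold change was -0.31 (adjusted p = 0.000207 by DESeq2). Library-size scaling gave -0.44 (adjusted p = 0.00418 by DESeq2), and rRNA-free scaling turned the sign to 0.28 (adjusted p = 0.0697 by DESeq2). The gene overlaps Gm20388 on the same strand, whose mean normalised count was 508 in the wildtype and 438 in the knockout, so that reads common to both were divided between them. Map1lc3b, Bnip3 and Bnip3l also have copies elsewhere of at least 95% identity. Those with a value were near 0 counts except Gm6055, a copy of Map1lc3b, at 6.35 in the wildtype and 19.6 in the knockout, and Gm6532, a copy of Bnip3, was not analysed here.

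Of the atrophy genes, neither ubiquitin ligase nor Foxo3 passed the test. Fbxo32 (ENSMUSG00000022358.6, chromosome 15 from 58175879 to 58214932, minus strand, protein-coding) had normalised counts of 2870.2, 2735, 3325 and 3211 in the wildtype and 1240.4, 2899.6, 5575 and 2688 in the knockout. The knockout libraries thus ran from far below to far above the wildtype range, 4.49 times from the lowest to the highest against 1.22 times in the wildtype. The log2 fold change was 0.03 with a 95% interval of -0.81 to 0.87 (adjusted p = 0.966 by DESeq2), which leaves the fold anywhere from 0.57 to 1.83. Among the settings that turned its sign were library-size scaling (-0.29) and the fits without knockout replicate 3 (-0.42) and without wildtype replicate 2 (-0.02). In the other direction, rRNA-free scaling gave 0.43 and the fit without knockout replicate 1 gave 0.30, and neither passed (adjusted p = 0.283 and 0.355 by DESeq2).

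Trim63 (ENSMUSG00000028834.13, chromosome 4 from 134315120 to 134329629, plus strand, protein-coding) had counts of 2451, 2455, 2629 and 2710.2 in the wildtype and 1743, 2534, 2649 and 1945 in the knockout. Knockout replicates 2 and 3 fell within the wildtype range and replicates 1 and 4 below it. The log2 fold change was -0.21 with a 95% interval of -0.50 to 0.08 (adjusted p = 0.293 by DESeq2). It was -0.11 (adjusted p = 0.581 by DESeq2) without knockout replicate 1, -0.31 (adjusted p = 0.0457 by DESeq2) without knockout replicate 3 and -0.51 (adjusted p = 0.00159 by DESeq2) with library-size scaling, while rRNA-free scaling gave 0.21 (adjusted p = 0.219 by DESeq2). Foxo3 (ENSMUSG00000048756.11, chromosome 10 from 42181841 to 42276755, minus strand, protein-coding) had counts of 1631, 1769, 1595 and 1861 in the wildtype and 969.6, 1748, 1794 and 1437 in the knockout. Here too replicates 2 and 3 stood within the wildtype range, and replicate 1 was the lowest library of all 8. The log2 fold change was -0.21 with a 95% interval of -0.57 to 0.16 (adjusted p = 0.425 by DESeq2), against -0.50 (adjusted p = 0.0223 by DESeq2) with library-size scaling and 0.22 (adjusted p = 0.361 by DESeq2) with rRNA-free scaling. It was -0.0461 without knockout replicate 1 and -0.31 without knockout replicate 3, neither of which passed (adjusted p = 0.816 and 0.145 by DESeq2).

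**Figure D2:**
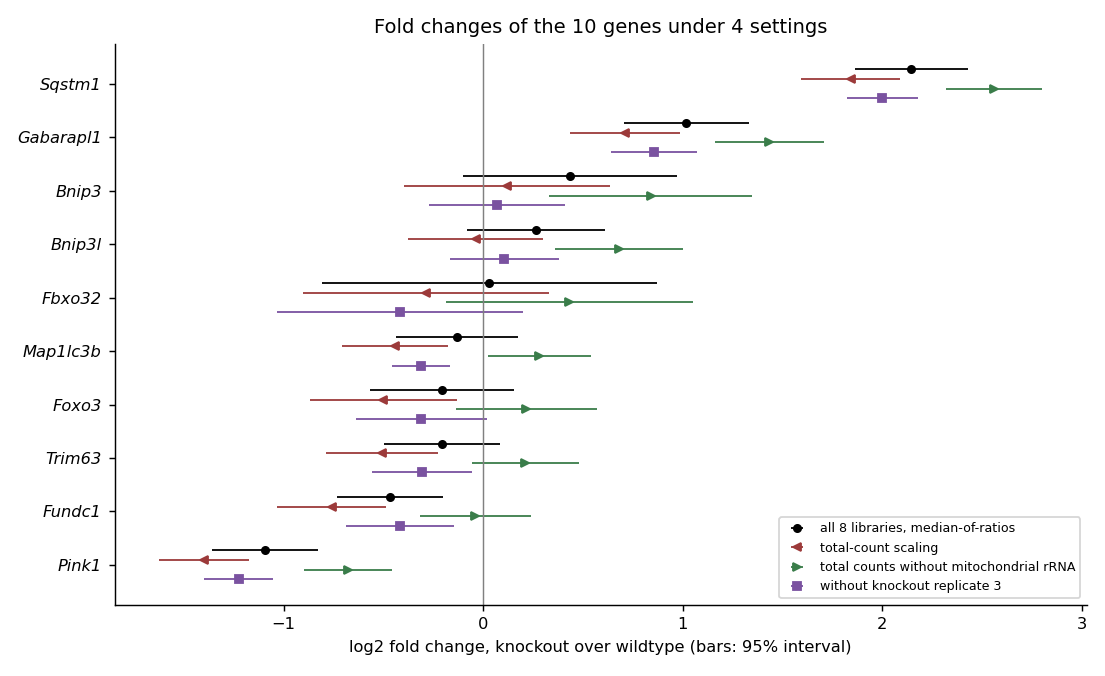
Log2 fold change, knockout over wildtype, of the 10 genes (points) with 95% intervals (bars) from all 8 libraries under 3 scalings and from 7 libraries without knockout replicate 3. Sqstm1, Gabarapl1 and Pink1 keep their side of 0 with intervals that exclude it in all 4 settings, the interval of Fundc1 includes 0 with rRNA-free scaling, and the points of Bnip3l, Fbxo32, Map1lc3b, Foxo3 and Trim63 lie on both sides of 0.

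For most of these genes the knockout hearts also varied more than the wildtype hearts. The SD was larger in the knockout for 9 of the 10 genes, all but Fundc1, and for 77.4% of the 12170 genes that averaged 50 normalised counts or more. The coefficient of variation ran from 3.80% to 11.3% in the wildtype, with a median of 8.74%, and from 9.75% (Fundc1) to 58.3% (Fbxo32) in the knockout, with a median of 22.4%. Over the 12170 genes the medians were 9.37% and 16.1%. Knockout replicate 3 was the highest knockout library for 9 of the 10 genes, and for 39.1% of those 12170. Knockout replicate 1 was the lowest for 7 of the 10 (all but Pink1, Fundc1 and Gabarapl1), and for 25.4% of them. Among the wildtype libraries replicate 3 was the highest for 6 and replicate 2 the lowest for 6 of the 10. Replicate 3 was also the library that stood apart in its cell type markers, and the part of this in its high values was not tested.

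Levels between genes were compared per transcript length, in TPM, which sets each library to the same total of transcripts. In the wildtype Pink1 was the highest, at 112 ± 8.08 TPM (SD, n = 4), followed by Sqstm1 at 67.6 ± 5.53 TPM. Map1lc3b (46.6 TPM), Bnip3 (44.5 TPM) and Trim63 (41.9 TPM) came next, and the ranges over libraries of Map1lc3b and Bnip3, and of Bnip3 and Trim63, overlapped. The ranges of Bnip3l (22.3 TPM) and Gabarapl1 (17.3 TPM) overlapped as well, though Bnip3l was the higher in each wildtype library. Below them were Fbxo32 (12.4 TPM) and then Foxo3 (7.71 TPM) and Fundc1 (6.73 TPM). The ranges of Foxo3 and Fundc1 overlapped, and Foxo3 was the higher in each wildtype library. The other neighbours in this order did not overlap.

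In the knockout Sqstm1 was the highest, at 271 ± 41.4 TPM (SD, n = 4), and its lowest library (229 TPM) lay above the highest library of any other of these genes (84.6 TPM, Bnip3). Bnip3 averaged 54.3 ± 23.3 TPM (SD, n = 4) and Pink1 47.4 ± 6.31 TPM (SD, n = 4), so that Pink1 went from the first to the third place. Then came Map1lc3b, Trim63, Gabarapl1 (31.8 ± 5.09 TPM), Bnip3l, Fbxo32, Foxo3 and Fundc1 (4.44 ± 0.526 TPM). Below Sqstm1 every gene in this order overlapped its neighbour. Rescaling TPM to records outside the mitochondrial genome and its nuclear copies kept all 20 places of the 2 orders.

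**Figure D3:**
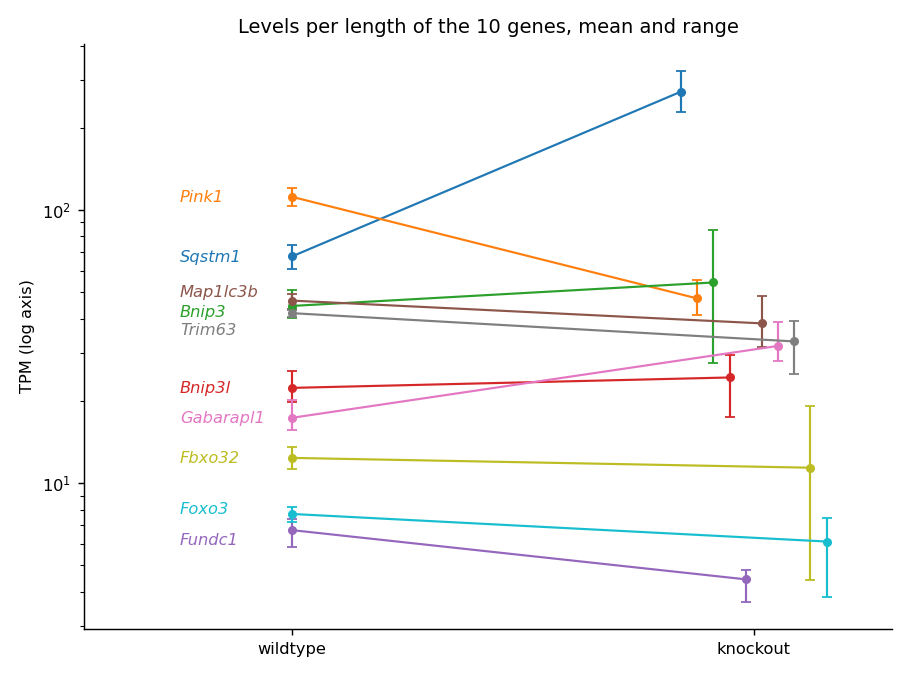
Mean level of the 10 genes in TPM (log axis) in the 4 wildtype and 4 knockout libraries, with bars from the lowest to the highest library and the knockout points set side by side for legibility. Sqstm1 and Pink1 exchange the lead, from 67.6 and 112 TPM to 271 and 47.4 TPM, and the knockout bars of Bnip3 and Fbxo32 are the longest.

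A ratio of 2 genes within a library does not depend on how libraries are scaled against each other. The level of Sqstm1 over that of Nbr1, a ubiquitin-binding receptor of like domain make-up, was 2.87, 2.67, 3.31 and 3.16 in the wildtype and 12.7, 13.1, 15.4 and 14.3 in the knockout. The 4 knockout ratios were thus all several times the wildtype ones and close to each other, also in replicate 3. The log2 ratio differed by 2.21 (exact permutation test, two-sided p = 0.0286, the smallest that 70 assignments allow). Nbr1 itself had a log2 fold change of -0.07 (adjusted p = 0.639 by DESeq2), but was called lower with library-size scaling (-0.37, adjusted p = 3.74e-05 by DESeq2) and higher with rRNA-free scaling (0.35, adjusted p = 8.07e-06 by DESeq2), and stood at 0.0415 without the length offset.

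Map1lc3b over Gabarapl1 stood at 2.81, 2.96, 2.44 and 2.60 in the wildtype and 1.11, 1.32, 1.24 and 1.16 in the knockout. In the wildtype LC3B RNA was thus well over that of its relative, and in the knockout the levels were nearly alike. The log2 ratio differed by -1.16 (exact permutation test, two-sided p = 0.0286). Gabarapl1 over Gabarap was 0.308, 0.297, 0.364 and 0.320 in the wildtype and 0.517, 0.391, 0.523 and 0.448 in the knockout, again without overlap (difference 0.54, exact permutation test, two-sided p = 0.0286). Gabarap had a log2 fold change of 0.47 (adjusted p = 0.00034 by DESeq2), which no longer passed with library-size scaling.

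The other 5 ratios overlapped between the groups. The Bnip3 to Bnip3l ratio was 1.96 to 2.05 in the wildtype and 1.58 to 2.86 in the knockout (log2 difference 0.08, exact permutation test, two-sided p = 0.714), and the Trim63 to Fbxo32 ratio was 3.17 to 3.60 against 1.91 to 5.64 (difference -0.07, exact permutation test, two-sided p = 0.743). Both were held within narrow limits in the wildtype hearts and varied in the knockout hearts, with Fbxo32 high beside Trim63 in replicate 3 and low in replicate 1. Map1lc3b over Map1lc3a differed by 0.17, Foxo3 over Foxo1 by 0.27 and Fundc1 over Fundc2 by 0.11 on the log2 scale (exact permutation tests, two-sided p = 0.114, 0.286 and 0.486). With a pseudocount of 1 TPM the difference of Foxo3 over Foxo1 was 0.0152, and leaving out 1 library moved it between 0.14 and 0.46 and that of Fundc1 over Fundc2 between 0.0342 and 0.24. After Benjamini-Hochberg adjustment over the 8 ratios the smallest p was 0.0762, so that 0 of the 8 passed at 0.05. With 8 ratios and 8 libraries, fewer than 5 ratios at the smallest p cannot pass.

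The make-up of the families was described next, a choice made after the data were seen and so given without a test. Of the summed TPM of the 5 ATG8 genes, Gabarapl1 held 6.15% ± 0.683 in wildtype and 12.0% ± 1.01 in knockout libraries (SD, n = 4 each), and Gabarap 19.1% ± 0.357 and 25.8% ± 2.70. Map1lc3a, the largest, took 51.7% ± 2.07 and 40.3% ± 2.73, and Map1lc3b 16.5% ± 0.623 and 14.5% ± 0.211. These 4 shares did not overlap between the groups, while that of Gabarapl2 did (6.52% and 7.34%). The LC3 genes thus held a smaller and Gabarap and Gabarapl1 a larger share in all 4 knockout libraries, replicate 3 included. Shares of 1 sum are bound together, so that a rise of 1 gene lowers the others. By its own counts neither LC3 gene passed the test. The log2 fold changes were -0.29 for Map1lc3a and -0.13 for Map1lc3b (adjusted p = 0.236 and 0.56 by DESeq2). How often such shares part in other gene families was not counted. Of the 3 MuRF genes, which encode sarcomere-bound ubiquitin ligases, Trim63 held 43.6% ± 1.82 of the TPM in the wildtype and 26.9% ± 3.70 in the knockout. Trim54 (MuRF3) held 43.3% ± 2.00 and 65.8% ± 3.93, and Trim55 (MuRF2) 13.1% ± 1.26 and 7.28% ± 2.23, all without overlap. By its own counts Trim63 did not pass (log2 fold change -0.21, adjusted p = 0.293 by DESeq2), while Trim54 rose by 1.10. Of the 4 FoxO genes, Foxo3 held 53.9% ± 1.50 in the wildtype and 60.8% ± 6.57 in the knockout, where the groups overlapped, as they did for Foxo1 and Foxo4. The share of Foxo6 was 2.68% and 0.290%, without overlap, at a mean of 34.3 normalised counts in the wildtype and 3.06 in the knockout.

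**Figure D4:**
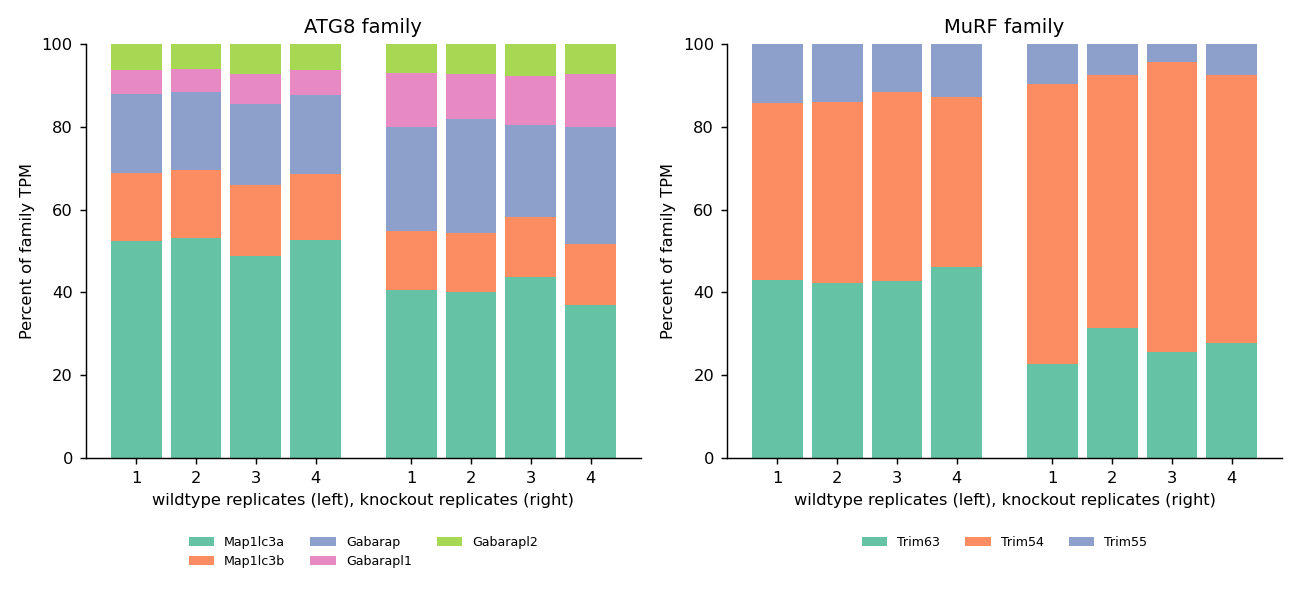
Percent of the summed TPM of the 5 ATG8 genes (left) and the 3 MuRF genes (right) taken by each gene (stacked bars) in wildtype replicates 1 to 4 and knockout replicates 1 to 4. Gabarapl1 averages 6.15% in the wildtype and 12.0% in the knockout, and Trim63 43.6% and 26.9%.

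The counting also gives for each gene a mean transcript length weighted by the abundance of its isoforms. It did not overlap between the groups for Sqstm1, which was 1891 ± 27.1 bases (SD, n = 4) in the wildtype and 1983 ± 16.9 bases (SD, n = 4) in the knockout, and for Map1lc3b, at 1852 ± 71.1 and 1704 ± 26.4 bases. The Sqstm1 transcripts were on average longer and those of Map1lc3b shorter in the knockout libraries. Among the 12894 genes whose length varied, 7.83% had groups that did not overlap. Foxo3 averaged 6446 ± 101 bases in the wildtype and 6153 ± 171 bases in the knockout with overlap, and the lengths of Pink1, Bnip3, Bnip3l, Fundc1, Gabarapl1 and Trim63 overlapped as well. Fbxo32 had 6936 bases in all libraries. These lengths are estimates from reads divided among isoforms and were looked at after the data were seen.

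The wider pathways were read from lists of other genes. Of the 33 genes of the autophagy core, which build and lipidate the membrane, 9 were higher and 4 lower (DESeq2), beside 18.2% and 15.5% of all records, with a median log2 fold change of 0.16 against 0.0050 over all records. The balance depended on the scaling, as it did over all records. By library size 1 was higher and 10 lower (1924 and 5912 of all records). When rRNA-free, 24 were higher and 1 lower (7917 and 1103 of all records). Atg101, of the ULK1 initiation complex, rose from 169 ± 9.99 to 335 ± 151 normalised counts (SD, n = 4), a log2 fold change of 0.99 (adjusted p = 0.00119 by DESeq2) that was 0.63 without knockout replicate 3. Rubcn, an inhibitor of autophagosome maturation, rose by 0.65 (adjusted p = 0.00062 by DESeq2) and the ATG8 protease Atg4a by 0.62 (adjusted p = 0.000634 by DESeq2), and both lost their call with library-size scaling. Atg10, which acts in the conjugation of ATG12, fell from 234 ± 22.1 to 126 ± 12.9 normalised counts (log2 fold change -0.89, adjusted p = 8.96e-08 by DESeq2). The other 3 that fell were Ulk1, Pik3r4 and Atg16l2, with log2 fold changes of -0.48, -0.52 and -0.50, and these 3 calls were lost with rRNA-free scaling. Without knockout replicate 3 the list had 8 higher and 7 lower.

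Of the 24 other mitophagy genes and cargo receptors, 12 were higher and 3 lower, where 18.2% and 15.5% of all records were, with a median of 0.28. Library-size scaling turned this balance to 3 higher and 6 lower (all records, 1924 and 5912). With rRNA-free scaling 18 were higher and 0 lower (all records, 7917 and 1103). Optn encodes optineurin, a cargo receptor for ubiquitinated mitochondria, and its counts were 1225, 1402, 1540.1 and 1404 in the wildtype and 3775, 3437, 5439 and 3379.9 in the knockout. All 4 knockout libraries were above the wildtype range, as for Sqstm1, and its log2 fold change was 1.52 ± 0.167 (SE, adjusted p = 3.48e-18 by DESeq2). Pgam5, a mitochondrial phosphatase that acts on FUNDC1, rose by 0.70 (adjusted p = 3.63e-06 by DESeq2), and Fbxl4, which restrains mitophagy by BNIP3 and NIX, by 0.66 (adjusted p = 5.38e-05 by DESeq2). Those that fell were Fundc2, a relative of Fundc1, by 0.57 on the log2 scale (adjusted p = 8.02e-06 by DESeq2), Nipsnap2 by 0.56 and Wdfy3 by 0.35. With rRNA-free scaling none of these 3 passed, and Wdfy3 turned to 0.08. Without knockout replicate 3 there were 9 higher and 4 lower, and with any 1 library left out between 7 and 11 higher. With the replicate number as a block 6 were higher.

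**Figure D5:**
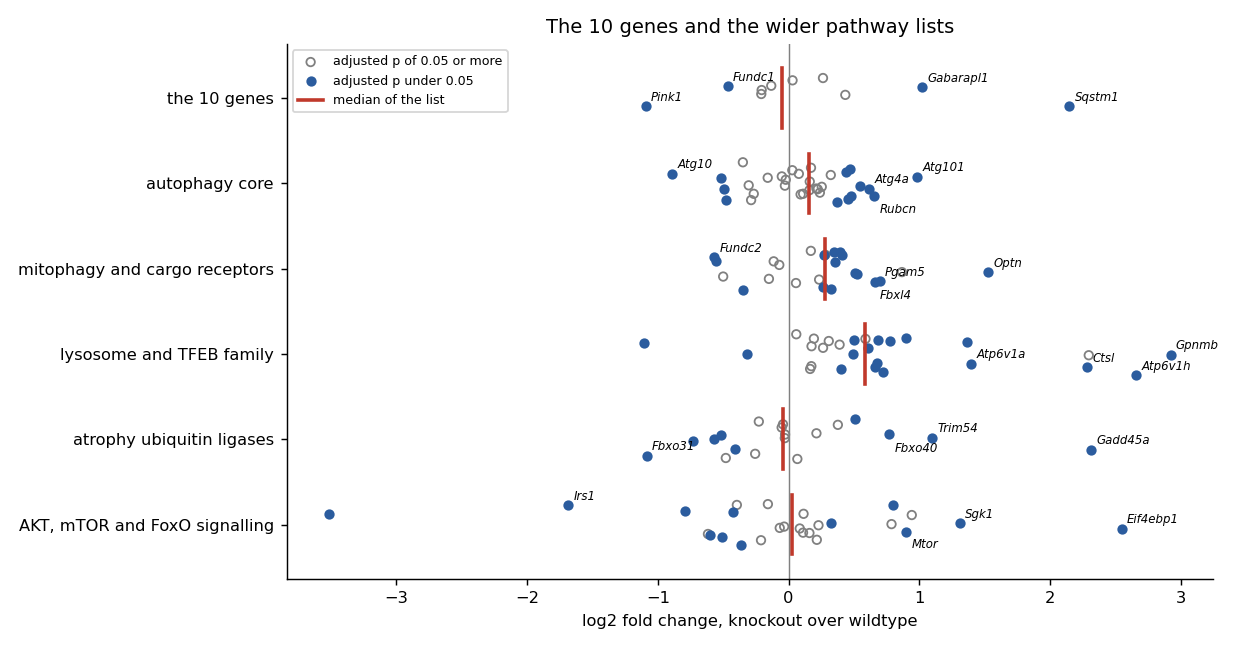
Log2 fold change, knockout over wildtype, of the 10 genes and of the genes of 5 wider lists (points, filled where the adjusted p was under 0.05), with the median of each list in red. The lysosomal list has the highest median, 0.59, and the point at the far left is Foxo6 at -3.52.

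Of 27 genes of the lysosome and of the TFEB family, 15 were higher and 2 lower, with a median of 0.59 (all records, 18.2% higher and 15.5% lower). There were 11 higher and 3 lower with library-size scaling (all records, 1924 and 5912). The rRNA-free scaling gave 24 higher and 1 lower (all records, 7917 and 1103). Atp6v1h, a subunit of the proton pump that acidifies lysosomes, rose from 362 ± 27.5 to 2285 ± 398 normalised counts (SD, n = 4), a log2 fold change of 2.66 ± 0.143 (SE, adjusted p = 7.95e-74 by DESeq2). Gpnmb, a membrane glycoprotein of lysosomes that macrophages also express, rose by 2.92 (adjusted p = 5.54e-23 by DESeq2), the protease gene Ctsl by 2.29 (adjusted p = 2.6e-19 by DESeq2) and the pump subunit gene Atp6v1a by 1.40 (adjusted p = 4.05e-20 by DESeq2). Macrophage markers were higher as well (6 of 8), and the groups of libraries were apart for 1 of the 8. In knockout replicate 3 their summed count was the lowest of the knockouts, 4230, within the wildtype range of 4206 to 5780. The same library was the highest for Gpnmb (333, other knockouts 168 to 250) and for Ctsl (16661, other knockouts 7090 to 8922). The part of macrophages in the rise of Gpnmb and Ctsl was not tested. Both that fell encode factors of the TFEB family. These were Mitf with -1.11 (adjusted p = 6.57e-15 by DESeq2) and Tfeb with -0.32 (adjusted p = 0.0454 by DESeq2). The third factor of this family in the list, Tfe3, had 0.49 (adjusted p = 0.0194 by DESeq2). The call of Tfeb was lost without any 1 of 7 of the 8 libraries and without the length offset (adjusted p = 0.135 by DESeq2), and its sign turned to 0.11 with rRNA-free scaling. The call of Tfe3 was lost without any 1 of 4 libraries and with library-size scaling, at 0.20 (adjusted p = 0.425 by DESeq2).

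Around the atrophy genes, 19 other genes of muscle ubiquitin ligases and atrophy were measured, of which 4 were higher and 5 lower, with a median of -0.04, and 33.7% of all records passed in either direction. By library size 3 were higher and 10 lower (all records, 1924 and 5912). With rRNA-free scaling 9 were higher and 2 lower (all records, 7917 and 1103). Gadd45a, a stress gene that is induced in denervated muscle, rose from 97.6 ± 13.2 to 484 ± 150 normalised counts (SD, n = 4), a log2 fold change of 2.31 (adjusted p = 1.93e-21 by DESeq2). Trim54 rose by 1.10 (adjusted p = 4.87e-11 by DESeq2), Fbxo40 by 0.77 (adjusted p = 3.78e-06 by DESeq2) and Fbxo30 by 0.51, which library-size scaling took below the threshold of the test. Fbxo31 fell by 1.09 on the log2 scale (adjusted p = 2.36e-06 by DESeq2), and Asb2, Fbxo21, Ube2b and Trim55 had log2 fold changes of -0.73, -0.57, -0.52 and -0.41. Of these 4, the calls of Fbxo21, Ube2b and Trim55 were lost with rRNA-free scaling, where Trim55 turned to 0.02. The call of Trim55 was also lost without any 1 of 6 libraries, all but wildtype replicate 3 and knockout replicate 1.

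Of 26 genes of the insulin, AKT, mTOR and FoxO pathway, which holds FOXO3 out of the nucleus when active, 5 were higher and 7 lower, again beside 33.7% of all records in either direction, with a median of 0.03. These counts were 4 and 12 with library-size scaling (all records, 1924 and 5912). They were 14 and 2 with rRNA-free scaling (all records, 7917 and 1103). Eif4ebp1, an inhibitor of translation that mTOR phosphorylates, rose from 582 ± 39.2 to 3404 ± 1125 normalised counts (SD, n = 4), a log2 fold change of 2.55 (adjusted p = 7.16e-35 by DESeq2). Sgk1, a kinase that like AKT phosphorylates FOXO3, rose by 1.31 (adjusted p = 2.16e-14 by DESeq2), Mtor by 0.90 (adjusted p = 0.000156 by DESeq2), and the other 2 that rose were Igf1r (0.80) and Akt1 (0.32), whose call was lost with library-size scaling and without wildtype replicate 1 or 2. Irs1, the adaptor that links the insulin receptor to PI3 kinase, fell from 2186 ± 308 to 678 ± 96.7 normalised counts (log2 fold change -1.69, adjusted p = 1.17e-29 by DESeq2). The FoxO relatives Foxo1, Foxo4 and Foxo6 had log2 fold changes of -0.51, -0.60 and -3.52 (adjusted p = 1.2e-05, 3.31e-06 and 1.13e-08 by DESeq2), and those of Foxo1 and Foxo4 did not pass with rRNA-free scaling. The other 3 that fell were Pik3r1, the regulatory subunit of PI3 kinase, Akt2, a relative of Akt1, and Rptor, the raptor subunit of the mTOR complex, with log2 fold changes of -0.79, -0.36 and -0.43 (adjusted p = 0.000208, 0.000622 and 0.0012 by DESeq2). With rRNA-free scaling none of these 3 passed, and Akt2 stood at 0.0641 and Rptor at 0.0010.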

How the data were processed

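Total RNA of 4 wildtype and 4 knockout mouse hearts was sequenced, and samples were grouped by their titles. The authors made the deposited expected counts and TPM from reverse-stranded read pairs with Bowtie2 and RSEM 1.2.31, against GENCODE M13 with their own mitochondrial sequences carrying 50 added adenines. RSEM divides reads among records that match them, so fractions of a read occur. Lengths in the same deposited files are other values, in bases. The authors' deposited table of fold changes, p-values and mean counts, and 8 columns of normalised counts whose names match no sample label, were not used.

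Expected counts were rounded. Genotype was tested by DESeq2 1.42.0 (R 4.3.3) on the 8 libraries together, scaled by median of ratios with effective lengths as a per-gene offset, as in the study, with Benjamini-Hochberg adjustment over all records tested and no shrinkage of fold changes. The 95% intervals are from the standard errors. The 8 libraries held 35218541 to 47743376 counts, and the spread between libraries exceeded the counting error at this depth. Ratios within a library were compared on the log2 scale of TPM by exact permutation tests. No pseudocount was added to TPM in the values given. Symbols and coordinates (mm10, GRCm38) came from GENCODE M21, where 50339 of 50563 Ensembl identifiers matched, promoter windows from RefSeq (GRCm38.p6), and copies from blastn 2.17.0.

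All 10 genes, Lrpprc and the genes of the ratios were named, and in each wider list the 4 genes that changed most among those called and averaging 50 normalised counts or more. Ulk1, Pik3r4, Atg16l2, Nipsnap2, Wdfy3, Tfeb, Tfe3, Mitf, Fbxo30, Trim55, Fbxo21, Asb2, Ube2b, Igf1r, Akt1, Akt2, Pik3r1, Rptor, Foxo4, Foxo6, Gabarapl2 and the overlapping or copied records were named after their values were seen. The genes and lists were chosen with earlier results of these data known. The same tests were repeated with edgeR 4.0.16 (TMM), after dropping the length offset, after a filter of 10 counts in 4 libraries, with size factors of nuclear records, with library-size and rRNA-free scaling, with a replicate block, and after leaving out each library. No replicate pair agreed within sampling noise (chi-square per degree of freedom 4.60 to 55.1), so each library counted as 1 replicate.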

Additional observations from a re-analysis of the deposited data

Results flagged for a closer look

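In 98 groups of 4 libraries the highest and the lowest value were compared with the rest of the group by Dixon's ratio. The ratio exceeded its 95% critical value in 6 groups, and chance alone gives about 1 in 20, or 4.9. In 3 of the 6 the library that stood apart was knockout replicate 3. It held 3345 normalised counts of Map1lc3b, where the other 3 knockouts held 2105 to 2280. For Eif4ebp1 it was 5077 against 2675 to 3032, and for Mtor 5012 against 2395 to 2773. In knockout replicate 2 the normalised count of Lrpprc was 504.3, below the 597.4 to 605.4 of the other 3, and the mean transcript length of Gabarapl1 was 1692 bases against 1813 to 1820. In wildtype replicate 3 the normalised count of Atp6v1h was 403, above the 344.2 to 351.3 of the other wildtype libraries. The part of library composition in these values was not tested.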

How the results depend on the processing

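Sqstm1, Gabarapl1 and Pink1 kept their direction and their call under every alternative run, and Fundc1 lost its call only with rRNA-free scaling (-0.04). That scaling gave 4 of the 10 genes higher and 1 lower, and library-size scaling gave 5 lower. Leaving out 1 library gave 2 to 4 lower. Over all genes library-size scaling gave 1924 higher and 5912 lower, and rRNA-free scaling 7917 higher and 1103 lower.

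With library-size scaling, 1 of the autophagy core genes was higher and 10 lower, 3 of the mitophagy genes were higher and 6 lower, 10 of the atrophy list were lower, and 12 of the AKT, mTOR and FoxO list. With rRNA-free scaling the autophagy core had 24 higher and 1 lower, the mitophagy list 0 lower, the lysosomal list 24 higher and 1 lower, the atrophy list 9 higher and 2 lower, and the AKT, mTOR and FoxO list 14 higher and 2 lower. Without the length offset 8 of the autophagy core and 1 of the lysosomal list were lower. Leaving out 1 library gave 4 to 7 lower in the autophagy core, 7 to 11 higher in the mitophagy list and 1 to 2 lower in the lysosomal list.

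Signs turned with library-size scaling for Bnip3l (-0.0376) and Fbxo32 (-0.29), and with rRNA-free scaling for Map1lc3b (0.28), Trim63 (0.21), Foxo3 (0.22), Map1lc3a (0.12), Nbr1 (0.35), Tfeb (0.11), Trim55 (0.0242), Wdfy3 (0.0776), Akt2 (0.0641) and Rptor (0.0010). Nbr1 also turned without the length offset (0.0415). Leaving out 1 library moved Fbxo32 between -0.42 and 0.30, the log2 ratio of Bnip3 to Bnip3l between -0.068 and 0.22, and that of Trim63 to Fbxo32 between -0.34 and 0.19. The cause was not tested. Log2 ratios of normalised counts, or with a pseudocount of 1 TPM, kept the direction of all 8 ratios.

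The labels do not say whether the replicate numbers pair the libraries. The correlations of same-numbered libraries were -0.02, -0.08, -0.04 and 0.09, and those of the other pairs ran from -0.08 to 0.11. Correlations this weak show no strong shared shift and cannot tell whether libraries were paired. With the replicate number as a block, 6 of the mitophagy genes were higher, 1 of the lysosomal list was lower, the log2 fold change of Fbxo32 was -0.15, and Tfeb and Tfe3 lost their calls (adjusted p = 0.154 and 0.0859 by DESeq2). The spread of the 4 knockout libraries limits what can be said of the 6 genes that did not pass.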
